A study of Homo sapiens with 8 samples.

Results

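Cells make cholesterol and fatty acids from acetyl-CoA along branches that part early, and 32 genes of these branches and their regulators were followed here by name in the RNA-Seq tables, which held 56269 genes in all. They were 6 genes of the mevalonate pathway (HMGCS1, MVK, PMVK, MVD, IDI1 and FDPS), 11 of the sterol branch that follows it (FDFT1, SQLE, LSS, CYP51A1, TM7SF2, MSMO1, NSDHL, HSD17B7, EBP, SC5D and DHCR7), 10 of fatty acid synthesis (ACLY, ACACA, FASN, SCD, ELOVL5, ELOVL6, FADS1, FADS2, ACSS2 and ACSL3) and 5 regulators (SREBF1, SREBF2, SCAP, INSIG1 and STARD4). The first 17 are called sterol synthesis genes below. RNA came from the established human cholangiocarcinoma (CCA, bile duct cancer) cell lines SNU1079 and SSP25, grown in medium with fetal bovine serum, which itself carries cholesterol and fatty acids. Per the labels, each line received vehicle (0.01% DMSO), BETp (40 nM ARV825), mTORi (50 nM AZD8055) or BETp + mTORi for 48 h, and doses in the combination were not given. ARV825 brings BET bromodomain proteins, readers of acetylated histones that help transcription, to the cereblon ubiquitin ligase for degradation, and AZD8055 inhibits the kinase mTOR, which drives growth when nutrients are ample. There was 1 library per line and treatment, 8 in all, so the 2 lines served as replicates and a drug effect within a line cannot be told apart from a difference between single cultures.

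Transcription of both branches is driven by the sterol regulatory element binding proteins. SREBF1 encodes SREBP-1, whose 1c form favors fatty acid genes, and SREBF2 encodes SREBP-2, which favors sterol genes. Both are made as membrane precursors that SCAP, the sterol sensor, escorts to the Golgi for cleavage when sterols are low, while INSIG1 holds SCAP back in the endoplasmic reticulum when sterols are plentiful. STARD4 carries cholesterol between membranes and is itself an SREBP target. mTOR complex 1 is known to favor SREBP activity, and liver cells are a main site of both pathways in the body.

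The values were TPM (transcript abundances scaled by transcript length and to a fixed library total). Such values hide how deeply a library was sequenced, and depth is therefore unknown. The number of genes at 1 TPM or above was 13308 to 14526 per library, and all 32 genes passed the filter of 1 TPM in at least 2 libraries, as did 16060 genes overall. Of 7 bile duct markers, KRT7, KRT19, KRT8 and KRT18 lay between 293 and 3746 TPM in all 8 libraries, whereas EPCAM (59.7 to 101 TPM in SNU1079) was at 0.90 to 1.74 TPM in SSP25. Of the other markers, the summed level of 6 hepatocyte genes was at most 8.87 TPM in SNU1079 and 0.11 in SSP25, and COL1A1 (272 to 1003 TPM in SNU1079) and CD14 (13.9 to 32.4 TPM in SSP25) were the highest of the fibroblast and leukocyte genes. Transcripts of the mitochondrial genome took a larger share of TPM under the combination (19.2% in SNU1079, 10.1% in SSP25) than under vehicle (14.4% and 5.99%). The median difference of all genes from vehicle on the log2(TPM + 1) scale was -0.19 under the combination. Quantile normalization, which forces a common distribution of values on every library, moved this median to 0.001, and the part of such composition in the values below was not tested.

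Many genes of these pathways are known to carry near their start sterol regulatory elements beside CCAAT boxes, bound by NF-Y, and GC boxes, bound by Sp1. Promoter windows of 300 bases, from 250 before to 50 after the start, were in RefSeq (GRCh38.p14) for 29 of the 32 genes, with FDFT1, SQLE and FASN not among them. Letters were searched on both strands, each motif on its own, so that matches of different motifs may overlap. CCAAT was present in 20 of 29 windows, 12 of 15 for sterol synthesis, 5 of 9 for fatty acid genes and 3 of 5 for regulators, against 35.7% of 27305 promoters. GGGCGG was in 26 of 29 against 44.6%, and CACGTG, an E-box, in 5 of 29 against 7.43%. The sterol regulatory element TCACNCCAC was found in SREBF2 alone, with its first base at -133 from the start, and in 1.15% of all promoters. These counts describe letters only, and forms of an element that differ from the searched letters or lie outside the windows were not counted. The shares cover promoters of all genes, expressed here or not, whereas all 32 genes passed the expression filter. The 200 bases before the start are given for the genes that passed a test between treatments (SCD, FADS1, ELOVL6 and EBP), for MSMO1, a sterol gene whose deposited values under mTORi lay on opposite sides in the lines, and for SREBF2, which holds the sterol regulatory element. Capitals mark CCAAT or its reverse complement ATTGG and the sterol regulatory element.
SCD (chr10:100347033-100347232, plus strand): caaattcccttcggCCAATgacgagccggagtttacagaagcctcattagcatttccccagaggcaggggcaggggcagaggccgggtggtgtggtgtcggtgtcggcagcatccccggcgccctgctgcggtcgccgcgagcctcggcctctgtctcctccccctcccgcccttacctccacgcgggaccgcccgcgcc
FADS1 (chr11:61817004-61817203, minus strand): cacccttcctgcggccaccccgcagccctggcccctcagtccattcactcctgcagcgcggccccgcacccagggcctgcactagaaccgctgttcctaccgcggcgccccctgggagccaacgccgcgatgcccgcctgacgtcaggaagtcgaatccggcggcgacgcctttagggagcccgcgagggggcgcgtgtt
ELOVL6 (chr4:110198616-110198815, minus strand): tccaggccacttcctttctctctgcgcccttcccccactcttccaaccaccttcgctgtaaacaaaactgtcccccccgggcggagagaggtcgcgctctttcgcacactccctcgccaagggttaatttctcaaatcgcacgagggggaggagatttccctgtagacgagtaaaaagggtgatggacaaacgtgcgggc
EBP (chrX:48521608-48521807, plus strand): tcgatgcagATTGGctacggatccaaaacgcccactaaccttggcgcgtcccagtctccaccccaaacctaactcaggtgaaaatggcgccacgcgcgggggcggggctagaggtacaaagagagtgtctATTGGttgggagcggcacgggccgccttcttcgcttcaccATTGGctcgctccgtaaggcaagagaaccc
MSMO1 (chr4:165327469-165327668, plus strand): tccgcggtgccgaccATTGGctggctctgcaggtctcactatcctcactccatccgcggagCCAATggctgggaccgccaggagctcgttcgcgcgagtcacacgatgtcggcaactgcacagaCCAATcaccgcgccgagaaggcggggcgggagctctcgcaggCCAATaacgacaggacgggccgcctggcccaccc
SREBF2 (chr22:41832905-41833104, plus strand): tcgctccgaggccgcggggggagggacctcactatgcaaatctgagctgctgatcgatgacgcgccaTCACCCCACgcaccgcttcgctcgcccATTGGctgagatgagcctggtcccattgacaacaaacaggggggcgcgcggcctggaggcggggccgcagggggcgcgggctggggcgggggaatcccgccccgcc

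MSMO1 carried 4 CCAAT boxes in this stretch and EBP 3, SCD and SREBF2 1 each, and those of FADS1 and ELOVL6 held 0.

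The combination was compared with vehicle to ask what both drugs did jointly. SCD and FADS1, desaturases that place double bonds into fatty acids, fell, and 30 of the 32 genes did not pass the test. ELOVL6, which elongates the products of fatty acid synthase, and EBP, an isomerase late in the sterol branch, missed the threshold narrowly. Calls were at an adjusted p under 0.05 (limma on log2(TPM + 1), Benjamini-Hochberg over all 16060 genes tested), and 1.81% of all genes tested were called, 1.52% as lower. At an unadjusted p under 0.05, 10 of the 32 genes passed, 9 lower and LSS higher, beside 25.8% of all genes. P-values in comparisons between treatments measure how far the lines differ in their response, whatever the source of that difference. For a drug averaged over both states of the other, as below, they also take in how its effect differed between those states. For a difference between lines in a drug's effect, SEs and p-values rest only on how far that effect differed between those states within a line. In bulk RNA, fewer cells making a transcript and less transcript per cell cannot be told apart.

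**Figure D1:**
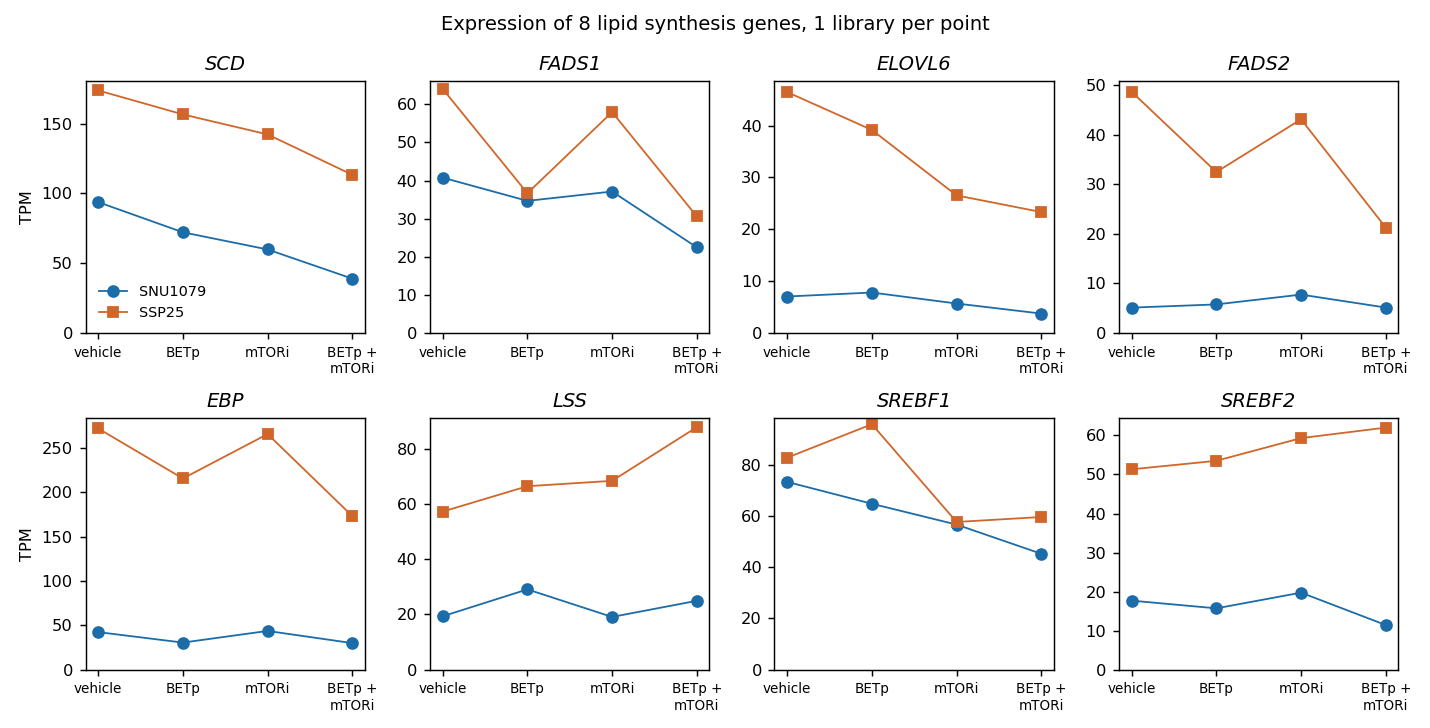
TPM (linear axis from 0) of SCD, FADS1, ELOVL6, FADS2, EBP, LSS, SREBF1 and SREBF2 under the 4 treatments, with 1 library per point, SNU1079 as circles and SSP25 as squares. SCD was lowest under the combination in both lines, at 39.0 and 113 TPM, and SREBF2 was lowest under it in SNU1079 at 11.5 TPM but highest in SSP25 at 62.0 TPM.

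SCD (GRCh37 chromosome 10, 102106990 to 102124583), which makes monounsaturated fatty acids, read 93.8 TPM under vehicle, 72.2 under BETp, 59.9 under mTORi and 39.0 under the combination for SNU1079, while SSP25 gave 174, 157, 142 and 113 TPM. The order of the treatments was the same in both lines, and every SSP25 library lay above every SNU1079 library. Under the combination, SCD fell by 0.93 ± 0.15 (SE, n = 2 lines, 95% interval -1.29 to -0.57) on the log2(TPM + 1) scale, at -1.25 in SNU1079 and -0.61 in SSP25 (limma adjusted p = 0.0438). Averaged over both BETp states, mTORi gave -0.57 ± 0.10 (adjusted p = 0.0527), and BETp averaged over both mTORi states -0.36 ± 0.10 (adjusted p = 0.108). Without any 1 of the 8 libraries, the combination value of SCD was -1.15 to -0.71 with an adjusted p of 0.0587 to 0.154, so the call rested on all 8.

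FADS1, the delta-5 desaturase of polyunsaturated fatty acids (GRCh37 chromosome 11, 61567099 to 61596790), read 40.8, 34.7, 37.1 and 22.5 TPM in SNU1079 under vehicle, BETp, mTORi and the combination, while SSP25 gave 64.0, 36.7, 57.9 and 30.6 TPM. In each line both libraries with BETp lay below both without it. It fell by 0.94 ± 0.16 under the combination (95% interval -1.31 to -0.56, limma adjusted p = 0.045) and by 0.65 ± 0.11 under BETp averaged over mTORi (95% interval -0.92 to -0.39, adjusted p = 0.0413), at -0.46 in SNU1079 and -0.84 in SSP25. mTORi averaged over BETp gave -0.28 ± 0.11 (adjusted p = 0.203). With 1 library left out, the combination value was -1.07 to -0.81 (adjusted p = 0.0574 to 0.183) and never passed. The BETp value was -0.78 to -0.57 and passed without the SNU1079 vehicle or BETp library (adjusted p = 0.0413 and 0.042), but not without any of the other 6 (0.099 to 0.124).

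FADS2, the delta-6 desaturase (GRCh37 chromosome 11, 61560452 to 61634826), spans FADS1 on the opposite strand in the annotation. Libraries were strand-specific, but whether the counting used strand is not given in the sources used here, so the reads of both genes may not be fully apart. FADS2 read 5.12, 5.77, 7.75 and 5.14 TPM in SNU1079 (vehicle, BETp, mTORi, combination), while SSP25 gave 48.6, 32.5, 43.1 and 21.3 TPM. The BETp libraries were low in SSP25, whereas SNU1079 held little FADS2 under any treatment. Under BETp averaged over mTORi it gave -0.48 ± 0.19 (limma adjusted p = 0.191), at -0.18 in SNU1079 and -0.78 in SSP25, and under the combination -0.58 ± 0.25 (adjusted p = 0.206), at 0.005 and -1.16.

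ELOVL6 (GRCh37 chromosome 4, 110967002 to 111120355) had a larger averaged change under mTORi than under BETp, with no test of the drugs against each other. It read 7.04 TPM under vehicle, 7.81 under BETp, 5.69 under mTORi and 3.75 under the combination for SNU1079, while SSP25 gave 46.4, 39.2, 26.5 and 23.3 TPM. Both libraries with mTORi lay below both without it in each line. mTORi averaged over BETp lowered it by 0.67 ± 0.11 (95% interval -0.93 to -0.40, limma adjusted p = 0.0481), at -0.58 in SNU1079 and -0.75 in SSP25. BETp averaged gave -0.20 ± 0.11 (adjusted p = 0.337) and the combination -0.86 ± 0.16 (adjusted p = 0.0512). In SNU1079, mTORi alone gave -0.27 and BETp added to mTORi gave -0.49, while SSP25 gave -0.79 and -0.18. The mTORi call was lost without any 1 of the 8 libraries (-0.77 to -0.61, adjusted p = 0.0736 to 0.176).

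Of the other 6 fatty acid genes, 0 passed in a comparison between treatments, although ELOVL5 and ACACA reached an unadjusted p under 0.05 for mTORi averaged. Under the combination their differences ran from -0.41 ± 0.14 for ELOVL5, which elongates polyunsaturated chains (limma adjusted p = 0.127), to 0.04 ± 0.20 for FASN, the fatty acid synthase (adjusted p = 0.904). FASN was at -0.42 in SNU1079 and 0.51 in SSP25. ACLY, which makes cytosolic acetyl-CoA from citrate, was at -0.001 ± 0.11, and ACACA, the committing carboxylase, at -0.22 ± 0.16. ACSS2, which makes acetyl-CoA from acetate, was at -0.18 ± 0.21 and ACSL3, which activates fatty acids with CoA, at -0.12 ± 0.16. Under quantile normalization 0 of the 10 fatty acid genes passed between treatments.

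**Figure D2:**
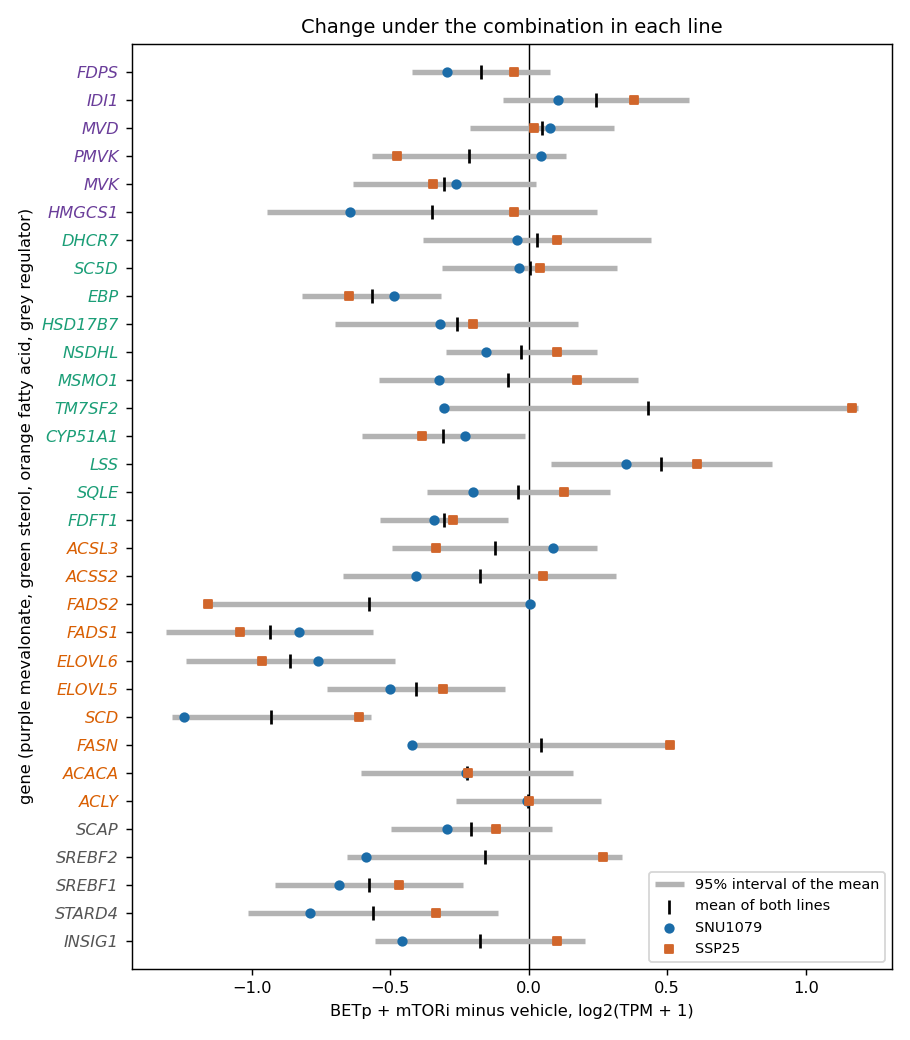
Difference between the combination and vehicle on the log2(TPM + 1) scale for 32 genes, with SNU1079 as circles, SSP25 as squares, the mean of both lines as a black tick and its 95% interval from limma as a grey bar. SCD and FADS1 lie lowest at -0.93 and -0.94, and LSS lies highest at 0.48.

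Among sterol genes, EBP (GRCh37 chromosome X, 48380187 to 48387104), which shifts a double bond in the sterol ring, fell under BETp. Its levels were 42.4 TPM under vehicle, 30.6 under BETp, 43.7 under mTORi and 29.99 under the combination for SNU1079, while SSP25 gave 272, 215, 265 and 173 TPM. Libraries with BETp lay below those without it in both lines, and the lines did not overlap. BETp averaged over mTORi lowered EBP by 0.48 ± 0.07 (95% interval -0.65 to -0.31, limma adjusted p = 0.0324), at -0.49 in SNU1079 and -0.47 in SSP25. The line difference in this effect was -0.02 ± 0.13 (95% interval -0.35 to 0.31). mTORi averaged gave -0.08 ± 0.07 (adjusted p = 0.544) and the combination -0.57 ± 0.11 (adjusted p = 0.0518). With 1 library left out, the BETp value stayed between -0.54 and -0.43 and passed without the SNU1079 vehicle (adjusted p = 0.044) or the SSP25 BETp library (0.0493), but not without any of the other 6 (0.0845 to 0.103).

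LSS, lanosterol synthase, which closes the sterol rings (GRCh37 chromosome 21, 47608055 to 47648738), went the other way without passing. Levels were 19.4, 29.1, 19.1 and 24.9 TPM in SNU1079 under vehicle, BETp, mTORi and the combination, while SSP25 gave 57.2, 66.4, 68.3 and 87.7 TPM. BETp libraries were the higher ones at either mTORi state in both lines. BETp averaged over mTORi gave 0.37 ± 0.11 (limma adjusted p = 0.111) and the combination 0.48 ± 0.17 (adjusted p = 0.138).

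TM7SF2, a sterol reductase, read 16.6, 18.5, 16.6 and 13.3 TPM in SNU1079 (vehicle, BETp, mTORi, combination), while SSP25 gave 5.39, 9.36, 12.3 and 13.4 TPM. SSP25 was lowest with vehicle and SNU1079 lowest with the combination. mTORi averaged over BETp gave 0.27 ± 0.23 (limma adjusted p = 0.531), at -0.23 in SNU1079 and 0.76 in SSP25. FDFT1, squalene synthase and the entry to the sterol branch, read 47.1, 43.5, 41.7 and 37.0 TPM in SNU1079, while SSP25 gave 79.3, 78.9, 73.4 and 65.5 TPM. Its lowest library was the combination in both lines, and mTORi averaged gave -0.19 ± 0.06 (adjusted p = 0.131). The other 7 sterol genes gave combination differences of -0.31 (CYP51A1, lanosterol demethylase, adjusted p = 0.178) to 0.03 (DHCR7, which completes cholesterol), and 0 of them passed between treatments. For BETp averaged over mTORi, CYP51A1 gave -0.32 ± 0.08 (limma adjusted p = 0.0775), at -0.21 in SNU1079 and -0.44 in SSP25.

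In the mevalonate pathway 0 of 6 genes passed between treatments (FDPS for BETp averaged and MVK for mTORi averaged reached an unadjusted p under 0.05). HMGCS1, which makes HMG-CoA, read 20.9, 24.4, 17.9 and 13.0 TPM in SNU1079 under vehicle, BETp, mTORi and the combination, while SSP25 gave 30.6, 25.1, 36.1 and 29.5 TPM. It was thus lowest under the combination in SNU1079 and highest under mTORi in SSP25. The combination gave -0.35 ± 0.25 (limma adjusted p = 0.409), mTORi averaged -0.15 ± 0.18 (adjusted p = 0.644, -0.54 in SNU1079 and 0.23 in SSP25) and BETp averaged -0.19 ± 0.18 (adjusted p = 0.539).

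MVK, mevalonate kinase, read 10.4, 10.7, 10.01 and 8.48 TPM in SNU1079, while SSP25 gave 10.9, 10.98, 8.81 and 8.34 TPM. Libraries with mTORi were the lower ones in both lines, with a difference of -0.25 ± 0.09 averaged over BETp (limma adjusted p = 0.175), and the combination gave -0.30 ± 0.14 (adjusted p = 0.221). PMVK, the next kinase, read 32.2, 29.7, 35.2 and 33.2 TPM in SNU1079, while SSP25 gave 33.4, 28.4, 30.2 and 23.7 TPM, and BETp averaged gave -0.19 ± 0.10 (adjusted p = 0.279). MVD, IDI1 and FDPS, which lead to farnesyl diphosphate, gave combination differences of 0.05, 0.24 and -0.17.

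SREBF1 (GRCh37 chromosome 17, 17713713 to 17740316) was lower wherever mTORi was present. It read 73.3 TPM under vehicle, 64.7 under BETp, 56.6 under mTORi and 45.2 under the combination for SNU1079, while SSP25 gave 82.7, 95.8, 57.6 and 59.6 TPM. Both mTORi libraries lay below both others in each line. mTORi averaged over BETp gave -0.52 ± 0.10 (95% interval -0.74 to -0.29, limma adjusted p = 0.0532), at -0.44 in SNU1079 and -0.59 in SSP25, which missed the threshold. The combination gave -0.58 ± 0.14 (adjusted p = 0.0777) and BETp averaged -0.06 ± 0.10 (adjusted p = 0.749, -0.25 in SNU1079 and 0.13 in SSP25).

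SREBF2 (GRCh37 chromosome 22, 42229109 to 42303310) differed in direction between the lines under the combination, while under mTORi alone it lay above vehicle in both. Levels were 17.7, 15.7, 19.7 and 11.5 TPM in SNU1079 under vehicle, BETp, mTORi and the combination, while SSP25 gave 51.3, 53.5, 59.3 and 62.0 TPM. The combination was the lowest library of SNU1079 and the highest of SSP25. It gave -0.16 ± 0.21 (95% interval -0.66 to 0.34, limma adjusted p = 0.653), at -0.59 in SNU1079 and 0.27 in SSP25. mTORi averaged gave 0.03 ± 0.15 (adjusted p = 0.915) and BETp averaged -0.19 ± 0.15 (adjusted p = 0.461), and the difference between lines in these effects did not pass for mTORi (adjusted p = 0.52) or BETp (adjusted p = 0.431).

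INSIG1 read 11.3, 10.6, 12.4 and 7.96 TPM in SNU1079 (vehicle, BETp, mTORi, combination), while SSP25 gave 48.3, 54.5, 54.9 and 51.9 TPM. The combination library was low in SNU1079 only, and gave -0.18 ± 0.16 over both lines (limma adjusted p = 0.508), with -0.14 ± 0.12 for BETp averaged (adjusted p = 0.516) and -0.03 ± 0.12 for mTORi averaged (adjusted p = 0.904). SCAP read 35.1, 34.7, 26.3 and 28.4 TPM in SNU1079, while SSP25 gave 28.3, 29.6, 26.5 and 26.0 TPM. Its mTORi libraries were the lower ones in both lines (-0.24 ± 0.08 averaged over BETp, adjusted p = 0.132), while the combination gave -0.21 ± 0.12 (adjusted p = 0.325) and BETp averaged 0.03 ± 0.08 (adjusted p = 0.843).

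STARD4 read 6.09, 4.69, 3.07 and 3.10 TPM in SNU1079, while SSP25 gave 18.5, 16.3, 16.4 and 14.4 TPM. It was lowest with mTORi in SNU1079, alone or combined, and lowest with the combination in SSP25. The combination gave -0.56 ± 0.19 (limma adjusted p = 0.13), mTORi averaged -0.40 ± 0.13 (adjusted p = 0.126) and BETp averaged -0.16 ± 0.13 (adjusted p = 0.473). Thus 0 of 5 regulators passed between treatments, and SREBF1 came nearest, with an adjusted p of 0.0383 for mTORi averaged when the filter was set to 5 TPM.

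The averaged effects share their libraries with the comparison of the combination and vehicle, so calls in both are not separate evidence. For BETp averaged, 2 of 32 genes were called, both lower (EBP and FADS1), beside 1.82% of all genes tested, 1.36% as lower. For mTORi averaged it was 1 of 32, ELOVL6, lower, beside 1.05% of all genes and 0.884% as lower. At an unadjusted p under 0.05, 7 of the 32 genes passed for BETp (6 lower and LSS higher) beside 22.8% of all genes. For mTORi, 10 passed, all lower, beside 19.3% of all genes as lower. These 10 were 5 of 10 fatty acid genes, 3 of 5 regulators and 2 of 17 sterol synthesis genes.

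Each drug alone against vehicle called 0 of the 32 genes by limma. For BETp alone, 3 passed at an unadjusted p under 0.05, FADS1, EBP and CYP51A1, all lower, beside 8.90% of all genes (6.50% lower), a similar share, and 0.00623% of all genes were called. For mTORi alone, 4 passed, ELOVL6, SREBF1, SCD and STARD4, again lower, beside 10.3% of all genes (8.75% lower), and 0.0125% of all genes were called. Departure from additivity, meaning how far the combination effect lay from the added effects of BETp and mTORi on the log2(TPM + 1) scale, was called for 0 of the 32 genes and 0% of all genes by limma, and 0 of the 32 passed unadjusted (2.00% of all genes did). The departure was -0.29 ± 0.22 for FADS1 (95% interval -0.82 to 0.24), -0.28 ± 0.23 for ELOVL6 (-0.82 to 0.25) and -0.18 ± 0.15 for EBP (-0.53 to 0.18). For SCD it was -0.205 ± 0.21 (-0.71 to 0.30), and FADS2 lay furthest from 0 at -0.54 ± 0.36 (-1.38 to 0.31). These intervals leave room for departures of either sign. Values lay below 0 for 26 of the 32 genes, beside 8281 of 16060 genes tested, and this lean was not tested.

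The branches differed in where their genes lay, described here by medians, with no test. Under the combination the median difference on the log2(TPM + 1) scale was -0.07 over 17 sterol synthesis genes, -0.31 over 10 fatty acid genes and -0.21 over 5 regulators, beside -0.19 over all genes tested. For mTORi averaged it was -0.03, -0.26 and -0.24 beside -0.11, and for BETp averaged -0.11, -0.07 and -0.14 beside -0.08. Summed TPM of the fatty acid genes went from 916 with vehicle to 753 with the combination in SNU1079 and from 682 to 523 in SSP25, and that of sterol synthesis genes from 637 to 566 and from 1103 to 1025. Quantile normalization put the sterol synthesis median at 0.14 and the fatty acid median at -0.09 under the combination and at 0.12 and -0.12 for mTORi, so in these comparisons the fatty acid median stayed below the sterol median while the sign of the latter turned. For BETp averaged it put them at -0.033 and 0.014, the fatty acid median being the higher one as before.

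With mTORi averaged over BETp, 7 of 10 fatty acid genes were lower in both lines, beside 47.6% of all genes, and 3 had opposite signs, whereas 15 of 17 sterol synthesis genes had opposite signs in the 2 lines, beside 36.2% of all genes. Of these 15 genes, 12 were lower in SNU1079 and higher in SSP25 (70.6% of the 17, beside 20.0% of all genes). Some lay near 0 in SNU1079, such as MVD at 0.005 and EBP at 0.008, or in SSP25, such as SC5D at 0.02. With BETp absent and present alike, mTORi libraries were lower for 10 of 17 genes and higher for 1 in SNU1079. In SSP25 they were higher for 10 and lower for 4. The share of all genes with such agreement was not counted. The sterol synthesis median was -0.12 in SNU1079 and 0.11 in SSP25, and that of fatty acid genes -0.30 and -0.24. Over all genes tested it was -0.12 in SNU1079 and -0.10 in SSP25. Under quantile normalization 8 of 17 sterol synthesis genes and 5 of 10 fatty acid genes had opposite signs, beside 42.8% of all genes, so the pattern of signs and its contrast between the branches depended on scaling. The sterol synthesis medians were then 0.04 in SNU1079 and 0.22 in SSP25. The sterol median was higher in SSP25 than in SNU1079 under both scalings. Without quantile normalization, the 9 further isoprenoid and sterol genes listed below did not share the pattern of signs. Of these, 7 were lower in both lines and 2 had opposite signs, with a median of -0.24 in SNU1079 and -0.24 in SSP25.

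**Figure D3:**
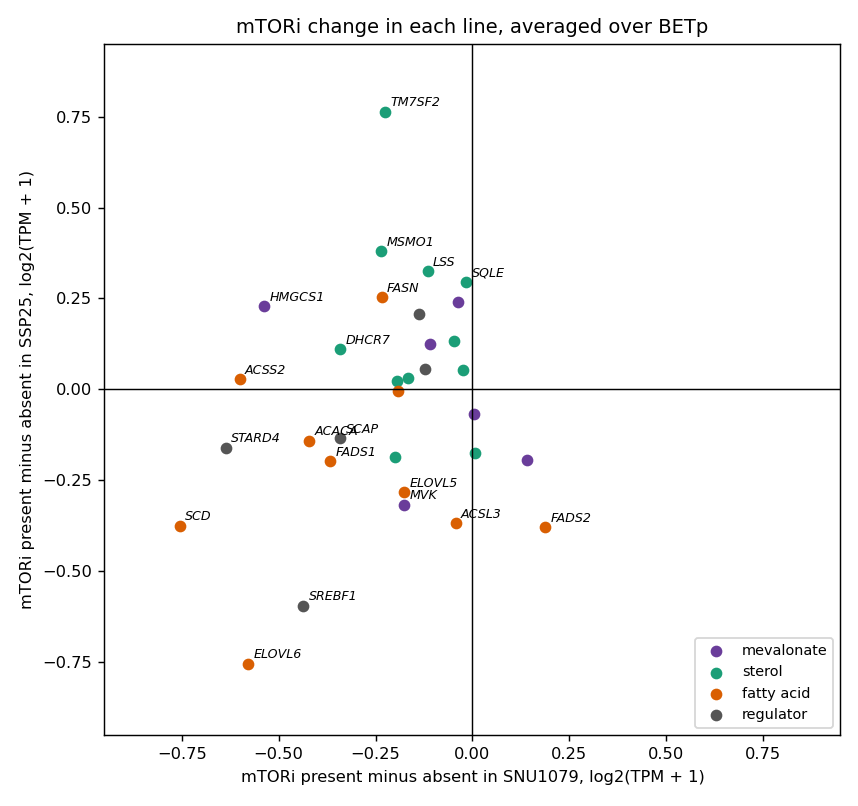
Difference between libraries with and without mTORi, averaged over BETp, on the log2(TPM + 1) scale, with SNU1079 on the horizontal and SSP25 on the vertical axis and 1 point per gene. Fatty acid genes such as ELOVL6 (-0.58 and -0.75) and SCD (-0.76 and -0.37) lie at the lower left, and 12 sterol synthesis genes lie at the upper left.

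The difference between lines was also tested gene by gene, with terms for each drug within each line. With 1 library per line and treatment, the SEs and p-values of this test do not come from repeated cultures. They rest on how far a drug's effect differed between the states of the other drug within a line. For mTORi it was called for 0 of 32 genes by limma, beside 0% of all genes (14.2% of all genes at an unadjusted p under 0.05). Unadjusted, 9 of the 32 passed, and the smallest p among them was that of MSMO1, the sterol C4-methyl oxidase, named here after its values were seen. MSMO1 read 20.7, 19.6, 17.5 and 16.4 TPM in SNU1079 (vehicle, BETp, mTORi, combination), while SSP25 gave 53.2, 45.8, 69.4 and 60.1 TPM, so that mTORi libraries were the lower pair in SNU1079 and the higher pair in SSP25. Its SNU1079 minus SSP25 difference in mTORi effect was -0.62 ± 0.11 (adjusted p = 0.231), and that of TM7SF2 -0.99 ± 0.27 (adjusted p = 0.263). For BETp, 0 of 32 were called, beside 0.00623% of all genes, and 3 passed unadjusted, FASN, SREBF1 and DHCR7 (adjusted p = 0.278 to 0.35), beside 12.4% of all genes.

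More of the genes were called between the lines than between treatments, and the same held over all genes tested. SNU1079 against SSP25 over 4 treatments called 26 of 32 genes, 6 higher and 20 lower in SNU1079, beside 74.0% of all genes tested, 38.2% higher and 35.8% lower. These p-values measure the spread over treatments of 1 culture per line, not over lines. Sterol synthesis genes were mostly lower in SNU1079, with 12 of 17 called lower and 2 called higher (DHCR7 and TM7SF2), and a median of -0.80. Of the regulators, 4 of 5 were lower, led by INSIG1 at -2.22 ± 0.11 and SREBF2 at -1.77 ± 0.15 (limma adjusted p = 3.62e-06 and 3.65e-05), while SREBF1 differed by only -0.29 ± 0.10 (adjusted p = 0.0358). Fatty acid genes were split, with 4 of 10 called higher and 4 called lower and a median of 0.05.

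**Figure D4:**
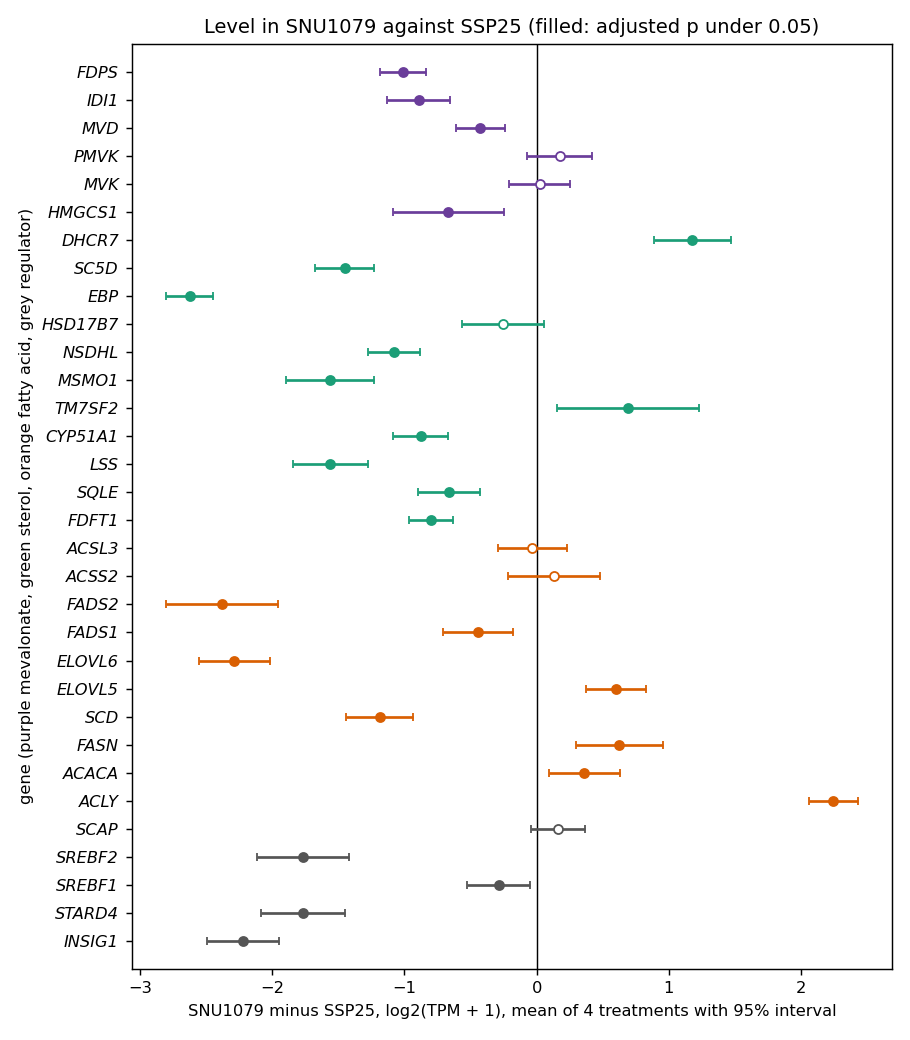
SNU1079 minus SSP25 on the log2(TPM + 1) scale, mean over 4 treatments with its 95% interval from limma, for 32 genes, with filled points called at an adjusted p under 0.05 and open points not called. EBP lies lowest at -2.62 and ACLY highest at 2.25.

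The widest gaps were in EBP, FADS2 and ELOVL6, at -2.62 ± 0.08, -2.38 ± 0.18 and -2.29 ± 0.11 in SNU1079 against SSP25, and in ACLY, at 2.25 ± 0.08. ACLY was at 334 to 435 TPM in SNU1079 and 80.3 to 81.5 TPM in SSP25, the highest of the fatty acid genes in SNU1079, whereas SCD at 113 to 174 TPM was the highest in SSP25. ACACA, FASN and ELOVL5 were also higher in SNU1079, and SCD and FADS1 lower. MVK, PMVK, HSD17B7, SCAP, ACSS2 and ACSL3 did not pass. FDPS, HSD17B7 and SCD have pseudogenes of similar sequence, and how reads shared with them were counted is not given in the sources used here.

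Neighboring steps of the pathway were listed beside the 32 genes. Of 9 further isoprenoid and sterol genes, 1 was called under the combination, beside 1.81% of all genes, namely ACAT2, the cytosolic thiolase that makes acetoacetyl-CoA for the mevalonate pathway. ACAT2 read 14.1, 11.9, 11.3 and 7.73 TPM in SNU1079 (vehicle, BETp, mTORi, combination), while SSP25 gave 54.7, 29.5, 39.6 and 18.2 TPM, lowest with the combination in both lines. It fell by 1.16 ± 0.20 (limma adjusted p = 0.0481). All 9 were lower in both lines, beside 51.0% of all genes, the smallest change being -0.06 for GGPS1. Of 21 other fatty acid synthesis genes 0 were called and 15 were lower in both lines, from -0.88 for ACSL5 to 0.16 for MID1IP1, with 8 passing unadjusted, all lower, beside 22.5% of all genes as lower. Of 6 genes of SREBP processing, 0 were called, 0 passed unadjusted, and the lowest difference was -0.17, for MBTPS2, a protease that cleaves SREBP.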

How the data were processed

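RNA-Seq of 8 strand-specific libraries was deposited by the authors as gene-level TPM values, in 1 table per cell line with 56269 genes each. Per the labels, the genome build was GRCh37 and the processing notes name DESeq2 and edgeR, which need counts and were not used here. Which aligner, annotation and counting were used is not given in the sources used here, and depth is unknown. The 32 genes and all gene lists were chosen with earlier results of these data known.

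TPM were transformed to log2(TPM + 1), so that differences of low genes are understated, and a gene was tested if 2 or more libraries reached 1 TPM. Linear models were fitted with limma 3.58.1 in R 4.3.3 (lmFit, contrasts.fit, eBayes with trend). They held treatment and cell line (3 residual degrees of freedom), line, BETp and mTORi (4) or line-by-drug terms (2). Cell line was the replicate block, since same-numbered samples are the same line, and the deviations of same-line libraries from the treatment means correlated at 0.911 to 0.936. Two-sided p-values were adjusted over all genes tested (Benjamini-Hochberg). The ± values are SEs of the model. The models were tested on simulated data. All regulators, all genes called between treatments and, in each of the mevalonate, sterol and fatty acid groups, the 2 genes furthest from 0 per comparison were given in every library. Positions of genes came from GENCODE 44 (GRCh37). As alternatives, each library was left out, the replicate block was dropped, the filter was set to 5 TPM or removed, the pseudocount was set to 0.1, log2 values were quantile normalized, and eBayes was run robustly with no trend. Some results are not reported here.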

Additional observations from a re-analysis of the deposited data

How the results depend on the processing

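Calls between treatments depended on the processing. Under the combination, 2 of the 32 genes were called, and 0 with a pseudocount of 0.1, no filter, quantile normalization, robust eBayes, no replicate block or any 1 library left out, but 4 with a filter at 5 TPM. For BETp averaged, 2 became 1 with a pseudocount of 0.1, 0 with no filter, quantile normalization, robust eBayes or no replicate block, and 0 to 3 with 1 library left out. For mTORi averaged, 1 became 3 with the filter at 5 TPM and 0 with a pseudocount of 0.1, no filter, quantile normalization, robust eBayes, no replicate block or any 1 library left out. Genes gained with the filter at 5 TPM included EBP for the combination (adjusted p = 0.0403) and SCD and SREBF1 for mTORi averaged (0.0372 and 0.0383). This filter tested 11772 genes and no filter 29421. Other causes were not tested. Counts for each drug alone, additivity and line differences stayed at 0, and the count between lines at 23 to 27. Over all genes, the combination calls of 291 became 86 (pseudocount of 0.1), 2 (no filter), 657 (5 TPM), 21 (quantile normalization), 9 (robust eBayes), 0 (no replicate block) and 0 to 136 (1 library left out). These were 47 higher and 244 lower, against 12 higher and 9 lower under quantile normalization.

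Quantile normalization moved the sterol synthesis median to 0.14 (combination) and -0.033 (BETp averaged), and the fatty acid median to -0.089 (combination) and -0.12 (mTORi averaged). With 1 library left out, the fatty acid median was -0.39 to -0.21 (combination) and -0.30 to -0.18 (mTORi averaged), and the sterol synthesis median -0.14 to -0.039 (BETp averaged), without a change of sign, while it was -0.15 to 0.037 for the combination and -0.051 to 0.044 for mTORi. Signs of regulators and of HMGCS1 near 0 turned. Under quantile normalization the values were 0.032 (INSIG1), 0.045 (SREBF2) and 0.007 (SCAP) for the combination, 0.099 (INSIG1) for mTORi and 0.0195 (SREBF1) for BETp. With 1 library left out they were -0.40 to 0.052 (INSIG1) and -0.54 to 0.22 (SREBF2) for the combination, -0.13 to 0.0995 (INSIG1), -0.073 to 0.21 (SREBF2) and -0.27 to 0.044 (HMGCS1) for mTORi, and -0.15 to 0.025 (SREBF1) and -0.014 to 0.072 (SCAP) for BETp. The depth behind the TPM values is unknown, so the counting error of low genes such as STARD4 and FADS2 in SNU1079 could not be given.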

Other observations

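Genes of sterol handling and of fatty acid oxidation, listed beside the synthesis genes, are given as values. Of 10 genes of the LXR receptors and sterol handling, 0 were called under the combination by limma, and 4 passed at an unadjusted p under 0.05, beside 25.8% of all genes. ABCA1, which exports cholesterol, was the lowest at -0.64 ± 0.18 (adjusted p = 0.0904), and NPC2, which carries cholesterol out of lysosomes, the highest at 0.31 ± 0.10 (adjusted p = 0.114). LPCAT3, an LXR target that remodels phospholipids, gave 0.42 ± 0.10 for BETp averaged (adjusted p = 0.0772) and -0.47 ± 0.10 for mTORi averaged (adjusted p = 0.0643), so that its combination value was -0.05 ± 0.16.

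Of 14 genes of fatty acid oxidation, 0 were called for the combination, BETp averaged or mTORi averaged. For BETp averaged, 6 were higher and 1 lower at an unadjusted p under 0.05, beside 5.65% and 17.2% of all genes, and 9 were higher in both lines, beside 20.1% of all genes. ACADVL, which starts the oxidation of very long chains, was the highest at 0.40 ± 0.11 (limma adjusted p = 0.108) and HADH, a later dehydrogenase, the lowest at -0.26 ± 0.08 (adjusted p = 0.115). Their median was 0.12 for BETp averaged, beside -0.07 for the 10 fatty acid synthesis genes and -0.08 for all genes. For mTORi averaged, 3 were lower unadjusted, beside 19.3% of all genes, and the median was -0.13, beside -0.26 and -0.11.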
